A study of Mus musculus with 10 samples.

Results

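The genes described here are the CDK inhibitors, the D cyclins and p130, which set whether a cell passes from G1 into S phase, and they were chosen by symbol: every gene of the deposited table named Cdkn1a, Cdkn1b, Cdkn2a, Cdkn2b, Cdkn2c, Cdkn2d, Ccnd1, Ccnd2, Ccnd3 or Rbl2. All 10 were found among the 26888 genes listed. D cyclins bind CDK4 and CDK6, and cyclin E binds CDK2, to phosphorylate the retinoblastoma protein and its relatives p107 and p130, which otherwise hold E2F-driven genes silent. INK4 inhibitors (p16INK4a, p15INK4b, p18INK4c and p19INK4d) bind CDK4 and CDK6 themselves, whereas the CIP/KIP inhibitors p21 and p27 bind cyclin-CDK complexes, and p130 with E2F4 and the MuvB proteins forms the DREAM complex of resting cells. In cultured stromal cells and fibroblasts, these genes are best known for contact inhibition, serum response and senescence.

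RNA-seq was done on OP9 cells, a stromal line from mouse calvaria (foetal in the labels, newborn in the paper) on the (C57BL/6xC3H)F2-op/op background, which lacks functional M-CSF. The study asked how the line changes when it is packed in 3 dimensions to support haematopoietic development. It compared 6 reaggregates, dispersed cells pelleted and grown for 48 h on nitrocellulose filters at the liquid-gas interface, with 4 flat submersed cultures. Reaggregates 2, 4 and 6 received IL3 at 200 µg/µl according to the labels, and reaggregates 1, 3 and 5 did not. Flat cultures 2 and 4 carry the name of the de Bruijn laboratory in their labels, whereas no laboratory is named for flat cultures 1 and 3 or for any reaggregate. By the paper's methods, the flat cells had been kept in the Medvinsky or the de Bruijn group. All libraries come from 1 line, and the labels do not say which cultures were set up separately, so that p-values measure only the spread between these libraries.

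Values are RPM, reads on a gene scaled to a fixed total over all genes, with reads that mapped to several places divided among them by the authors. The commonest value above 0 in a library, taken as 1 read, gave depths between 7.35 and 9.43 (in units of 1e6 reads on genes), and 3 reads, the smallest amount taken as detectable, were worth between 0.318 and 0.408 RPM. Intervals and this floor cover counting error only. Collagen genes and Pdgfra marked the cells as mesenchymal in every library. Among 12 stromal markers, Col1a2 had 7610 to 11300 RPM in reaggregates and 1190 to 6340 RPM in flat cultures. Thy1, another of them, stayed at or below 0.359 RPM. Blood cell markers summed to at most 3.65 RPM, endothelial markers to at most 1.23 RPM and epithelial markers to at most 0.479 RPM in any library. Ptprc, Cd3e, Emr1 and Gata1, which define blood cells, and Epcam were listed at 0 in all 10 libraries. In bulk RNA, fewer cells that express a gene and less RNA per cell cannot be told apart.

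The libraries fell into sets that the group names do not show. Consecutive reaggregates (1 and 2, 3 and 4, 5 and 6) resembled each other, with Pearson's r over genes between 0.994 and 0.995 against 0.961 to 0.980 for the 12 other pairs, and the labels do not say whether they share a culture. Flat cultures 2 and 4 stood apart from the other 8 libraries. They held 107 and 124 RPM on the genes of chromosome Y, of which 4 (Ddx3y, Uty, Eif2s3y and Kdm5d) passed 0.5 RPM in either, while the other libraries held at most 0.36 RPM and none of these genes passed. They also had more adipocyte marker RNA, 835 and 1010 RPM summed over 5 listed genes against 61.1 to 105.5 RPM elsewhere. Members and lists are therefore compared with all 4 flat cultures and with flat cultures 1 and 3.

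Of the 3 members called lower in reaggregates, Ccnd1 had the largest fitted decrease, followed by Ccnd2 and Cdkn2d. Cdkn1a and Rbl2 were higher by less than 2-fold, and Cdkn2a was found in flat cultures 2 and 4 alone. In limma on log2(RPM + 0.5), where a call needed both a 2-fold change and an adjusted p no higher than 0.05, 0 of the 10 members were up-regulated and 3 were down-regulated, beside 7.32% and 6.53% of the 16933 genes tested. By adjusted p alone, 2 were higher and 5 lower, beside 13.6% and 15.7% of genes. Every reaggregate lay above every flat culture for 2 members, beside 7.80% of genes, and below for 4, beside 11.4%. Against flat cultures 1 and 3, with 9 members tested, 0 were up-regulated and 2 down-regulated (Ccnd1 and Cdkn2d), beside 3.97% and 6.49% of 16637 genes. Against flat cultures 2 and 4, 1 was up-regulated and 3 down-regulated, beside 15.5% and 10.6% of 16697 genes. The 3 include Cdkn2a, which passed the filter through these cultures alone and whose fitted fold is set by the pseudocount, and without it 2 of 9 were down-regulated (Ccnd1 and Ccnd2). With the laboratory label as a covariate, an analysis added after the data were seen, 0 and 2 were called, beside 4.15% and 6.47%. With consecutive reaggregates averaged, 0 members were up-regulated and 1 down-regulated (Ccnd1), beside 319 and 430 genes. With these as a random effect there were 0 and 3, beside 769 and 677 genes. For the averaged and random-effect runs no share of genes tested is given, so that the member counts have no background beside them.

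**Figure D1:**
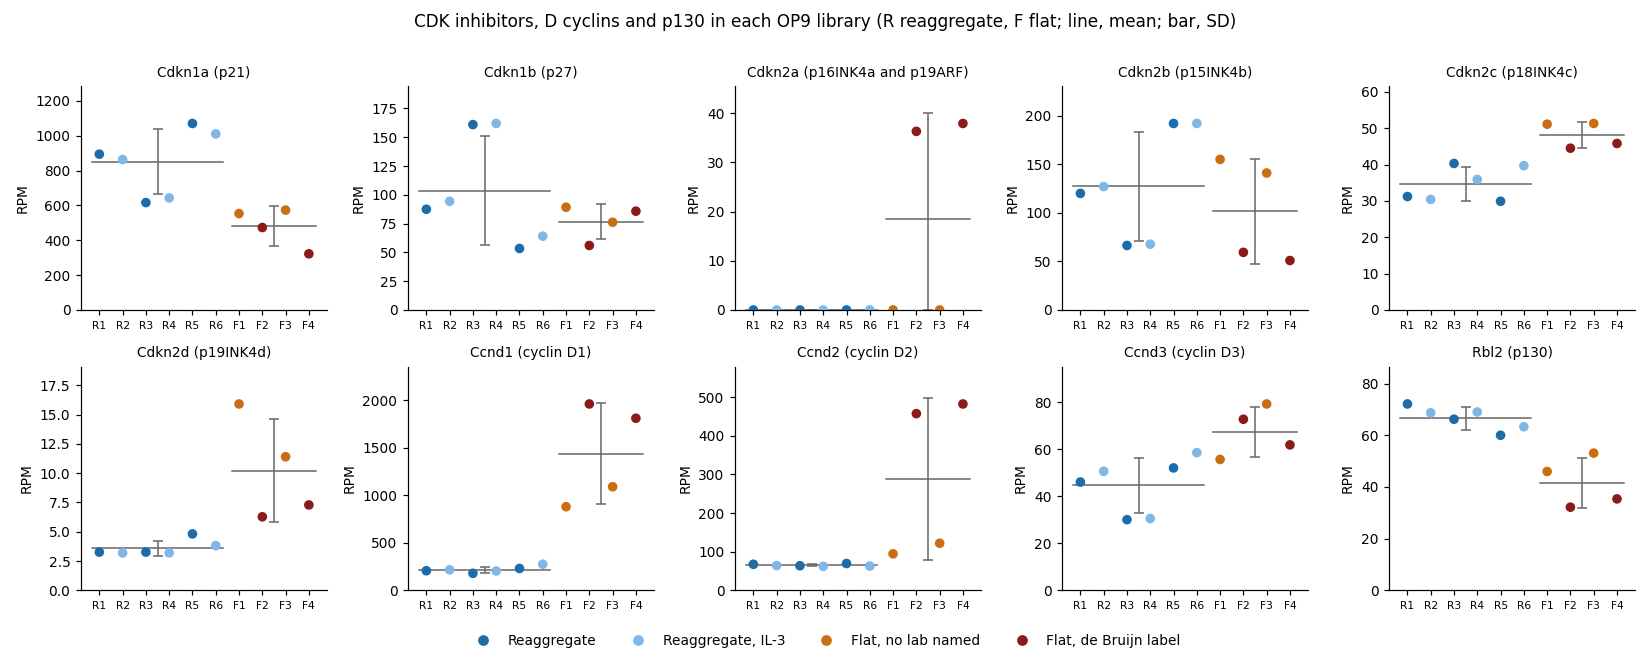
RPM of the 10 members in each library (R1 to R6, reaggregates; F1 to F4, flat cultures), on linear axes that start at 0. Grey lines are group means and bars are SD, stopped at 0 for Cdkn2a. Ccnd1 lay between 180 and 276 RPM in reaggregates and between 880 and 1960 RPM in flat cultures.

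Among the CIP/KIP inhibitors, Cdkn1a encodes p21, a direct p53 target that arrests cells in G1. It had 616 RPM in the lowest reaggregate, 1070 RPM in the highest and a median of 878.5 RPM, against 553, 473, 573 and 322 RPM in flat cultures 1 to 4. Reaggregates 5 and 6 were highest, reaggregates 3 and 4 lowest, and the groups did not overlap. The fitted log2 fold change was 0.83 ± 0.22 (SE; adjusted p = 0.0179 by limma; exact permutation p = 0.00952 over 210 splits, of which the smallest possible is 0.00476), short of 2-fold. Against flat cultures 1 and 3 it was 0.56 with an adjusted p of 0.123 by limma, although the 6 reaggregates still lay above both. With all 4 flat cultures, the adjusted p was 0.117 by limma with consecutive reaggregates averaged and 0.0507 with these as a random effect. Against flat cultures 2 and 4 alone, it was 1.09 and passed both thresholds.

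Cdkn1b encodes p27, which accumulates in resting cells. It ranged from 53.4 to 162 RPM in reaggregates with a median of 90.95 RPM, and was 89.2, 56.0, 76.2 and 85.8 RPM in flat cultures. Its values followed the consecutive reaggregates: 161 and 162 RPM in reaggregates 3 and 4, 87.5 and 94.4 RPM in reaggregates 1 and 2, and 53.4 and 64.1 RPM in reaggregates 5 and 6. The flat cultures lay inside that range, and no difference passed the test (log2 0.33, 95% interval from -0.36 to 1.01; 0.20 against flat cultures 1 and 3). Cdkn1c, which encodes p57 of the same family, was at or below 0.243 RPM in all libraries and below the floor.

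Among the INK4 inhibitors, Cdkn2a, from which alternative first exons make p16INK4a and p19ARF, lies on chromosome 4 at chr4:88920377-88940557 (NCBIM37). It was listed at 36.3 and 37.9 RPM in flat cultures 2 and 4, and at 0 in flat cultures 1 and 3 and in 4 reaggregates. The remaining values, 7.03e-05 RPM in reaggregate 2 and 7e-06 RPM in reaggregate 5, are far below 1 read. Detection thus divided the libraries as the chromosome Y genes did, with 8 libraries below the floor, and not by culture. The mean of flat cultures 2 and 4 was 37.1 RPM, at least 90.9-fold higher than the highest 3-read floor of the other libraries, 0.408 RPM. RPM is given per gene, so that the transcripts of p16INK4a and p19ARF were not separated.

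Cdkn2b (p15INK4b), whose annotated start is the next one beyond Cdkn2a on the same strand, at chr4:88952198-88956941, was expressed in every library. Reaggregates spanned 66.4 to 192 RPM with a median of 123.5 RPM, and flat cultures 1 to 4 had 155, 59.3, 141 and 50.9 RPM. Within the flat cultures, the libraries with Cdkn2a had the lower Cdkn2b. Every reaggregate lay above these, and the reaggregates overlapped flat cultures 1 and 3. The fitted log2 fold change was 0.37 (adjusted p = 0.50 by limma) and changed sign, to -0.34, against flat cultures 1 and 3 (adjusted p = 0.59 by limma), neither past the threshold. Mtap, on the other side of Cdkn2a at chr4:88783026-88826985, likewise had between 112 and 520 RPM in all libraries. Its values in flat cultures 1 to 4 were 520, 116, 310 and 135 RPM, and over 10 libraries, which share their groups and consecutive pairs, Pearson's r between Cdkn2b and Mtap was 0.814. Klhl9, farther along, had between 74.8 and 181 RPM and an r of 0.46 with Cdkn2b. Genes on either side of Cdkn2a were thus read in the 8 libraries in which it was at or near 0, and whether these cells carry the gene was not tested.

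**Figure D2:**
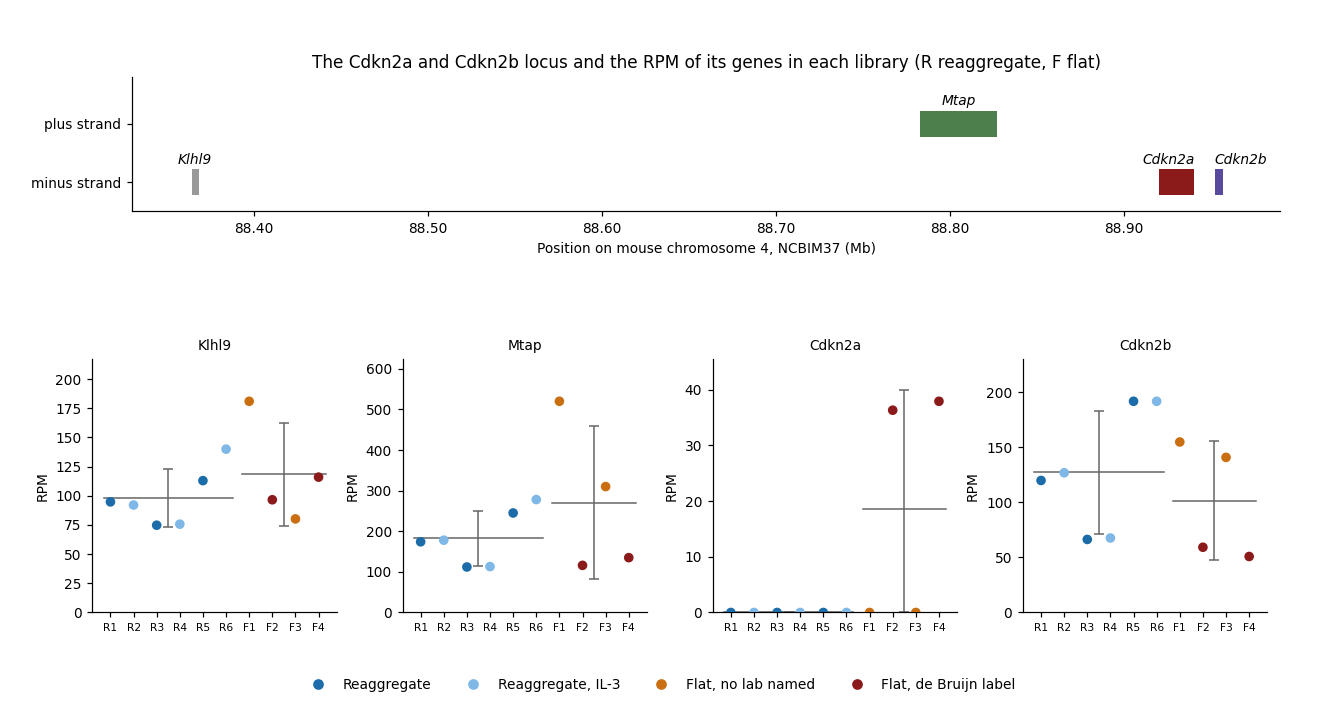
The Cdkn2a and Cdkn2b locus on mouse chromosome 4 (NCBIM37, positions in Mb), drawn to scale with its annotated neighbours on the plus or minus strand, over the RPM of each gene in each library. Lines are group means and bars SD, stopped at 0. Cdkn2a lay at 36.3 and 37.9 RPM in F2 and F4, whereas Mtap and Cdkn2b were read in all 10 libraries.

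Cdkn2c encodes p18INK4c. It lay between 29.9 and 40.3 RPM in reaggregates with a median of 33.55 RPM, and at 51.1, 44.5, 51.3 and 45.8 RPM in flat cultures, so that all reaggregates were lower. The fitted log2 fold change was -0.48 ± 0.14 (adjusted p = 0.0245 by limma), below 2-fold, and -0.57 against flat cultures 1 and 3 (adjusted p = 0.0421 by limma). Against flat cultures 2 and 4, Cdkn2c had -0.39 and did not pass (adjusted p = 0.0663 by limma). With all 4 flat cultures, it did not pass with consecutive reaggregates averaged (adjusted p = 0.148 by limma) or as a random effect (0.269).

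Cdkn2d, for p19INK4d, was the least abundant member of the family outside Cdkn2a. Its RPM was 3.2 to 4.82 in reaggregates with a median of 3.27, and 15.9, 6.28, 11.4 and 7.29 in flat cultures 1 to 4. All reaggregates were below all flat cultures, and flat cultures 1 and 3 were highest. The log2 fold change was -1.31 ± 0.26 (adjusted p = 0.00481 by limma), -1.78 against flat cultures 1 and 3 (adjusted p = 0.00113 by limma) and -0.84 against flat cultures 2 and 4, which is under 2-fold. When consecutive reaggregates were averaged, the log2 fold change stayed at -1.31 and the adjusted p rose to 0.0724 by limma, and with these as a random effect the member was still called (0.044).

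The Cdkn2d values need care, because 95.7% of the 50-base windows of its exons occur a second time on NCBIM37, in Gm4694 on chromosome 9. That copy, listed under an older contig name, had the pattern most like Cdkn2d over the 10 libraries (r = 0.991), with 2.69 to 4.18 RPM in reaggregates and 13.2, 4.46, 9.31 and 6.8 RPM in flat cultures. Summed over both, the level was 6.73 ± 1.18 RPM (SD, n = 6) in reaggregates and 18.7 ± 8.1 RPM (n = 4) in flat cultures, again without overlap, between 5.89 and 9.0 RPM against 10.74 to 29.1 RPM. How many of the reads came from Cdkn2d cannot be told from these values. Of the other members, only Ccnd3 shared windows with another place, 14.8% of them, and for the remaining 8 all windows occurred once.

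The D cyclins, whose genes are induced by growth factors, included the called members with the largest decreases, Ccnd1 and Ccnd2. Ccnd1, at chr7:152115836-152125774, had 180 RPM in the lowest reaggregate, 276 RPM in the highest and a median of 212 RPM. In flat cultures 1 to 4 it had 880, 1960, 1090 and 1810 RPM. The groups were far apart, the reaggregates were close to one another, and flat cultures 2 and 4 were again highest. Group means were 219 ± 32.4 RPM (SD, n = 6) and 1435 ± 530 RPM (n = 4), 6.54-fold apart, with a fitted log2 fold change of -2.64 ± 0.23 and an adjusted p of 6.62e-05 by limma (exact permutation p = 0.00476, the smallest possible). It was called with flat cultures 1 and 3 alone (-2.17, adjusted p = 0.000107 by limma), with flat cultures 2 and 4 alone (-3.11) and with consecutive reaggregates averaged (-2.64, adjusted p = 0.0093 by limma).

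Ccnd2, at chr6:127075797-127101066, had 62.4 to 69.6 RPM in reaggregates with a median of 64.1 RPM, and 94.6, 457, 122 and 482 RPM in flat cultures 1 to 4. No other member was as even among reaggregates for its level (65.2 ± 2.84 RPM, SD, n = 6), and every flat culture was higher, but flat cultures 2 and 4 were 4.34-fold above flat cultures 1 and 3. The log2 fold change was -1.78 ± 0.42 (adjusted p = 0.00989 by limma) against all flat cultures. It was -2.84 against flat cultures 2 and 4 and -0.72 against flat cultures 1 and 3 (adjusted p = 0.00712 by limma), which is under 2-fold, so that the call rests on the labelled cultures. Averaging consecutive reaggregates left the log2 fold change at -1.78 and raised its adjusted p to 0.102 by limma, and with these as a random effect it was still called (0.0309).

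Ccnd3, at chr17:47642000-47736632, had 30.1 to 58.6 RPM in reaggregates with a median of 48.4 RPM, and 55.7, 72.8, 79.3 and 61.9 RPM in flat cultures. Reaggregates 3 and 4, at 30.1 and 30.6 RPM, were lowest, and reaggregate 6 overlapped flat culture 1. The log2 fold change of -0.62 ± 0.21 had an adjusted p of 0.0485 by limma, and 0.155 against flat cultures 1 and 3. With all 4, it was 0.164 by limma with consecutive reaggregates averaged and 0.119 with these as a random effect. The gene with the pattern most like Ccnd3 (r = 0.972) was its pseudogene on chromosome 4, Ccnd3-ps, which shares 3.03% of its windows. Reads from those windows cannot be assigned to either. A larger part of the Ccnd3 windows, 11.1%, recurs on chromosome 4 outside any annotated gene, and 1.46% recur in Pcdhgc5.

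Levels of different genes can be compared per length, here as RPM per kb of annotated exon. Ccnd1 made up 80.8% to 84.8% of the D cyclin level in flat cultures and 62.5% to 68.6% in reaggregates, while Ccnd3 rose from 4.7% to 10.3% of it to 17.4% to 24.9%. The summed D cyclin level was 88.4 ± 13.3 RPM per kb in reaggregates (SD, n = 6), 271 and 341 RPM per kb in flat cultures 1 and 3, and 624 and 584 RPM per kb in flat cultures 2 and 4. Set over the summed level of the 6 inhibitors, it gave a ratio of 0.148 to 0.2 in reaggregates and of 0.658, 1.95, 0.844 and 2.29 in flat cultures 1 to 4. The ratio of Ccnd1 to Cdkn1a alone was 0.125 to 0.185 in reaggregates and 0.922 to 3.26 in flat cultures.

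The order of the members per kb was Cdkn1a (382 ± 83.8 RPM per kb, SD, n = 6), Cdkn2b (91.5), Ccnd1 (57.2), Cdkn1b (22.8), Ccnd3 (19.8), Cdkn2c (12.9), Ccnd2 (11.4), Rbl2 (9.56), Cdkn2d (2.83) and Cdkn2a in reaggregates. Cdkn2b overlapped Ccnd1 there, and Cdkn1b, Ccnd3 and Cdkn2c each overlapped the next in the order. In flat cultures 1 and 3, Ccnd1 (257 RPM per kb) and Cdkn1a (253 RPM per kb) came first and overlapped, whereas in flat cultures 2 and 4 Ccnd1 (491.5 RPM per kb) was above Cdkn1a (179 RPM per kb) and Ccnd2 (82.3 RPM per kb) came next. Cdkn2a had 31.7 RPM per kb in these cultures, within the range of Ccnd3, and made up 32.6% and 35.3% of the INK4 level. Cdkn2b was 73.1% to 90.2% of the INK4 level in the reaggregates. Flat cultures 1 and 3 lay within that range, at 77.9% and 78.3%, and flat cultures 2 and 4 had 44.8% and 39.8%.

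**Figure D3:**
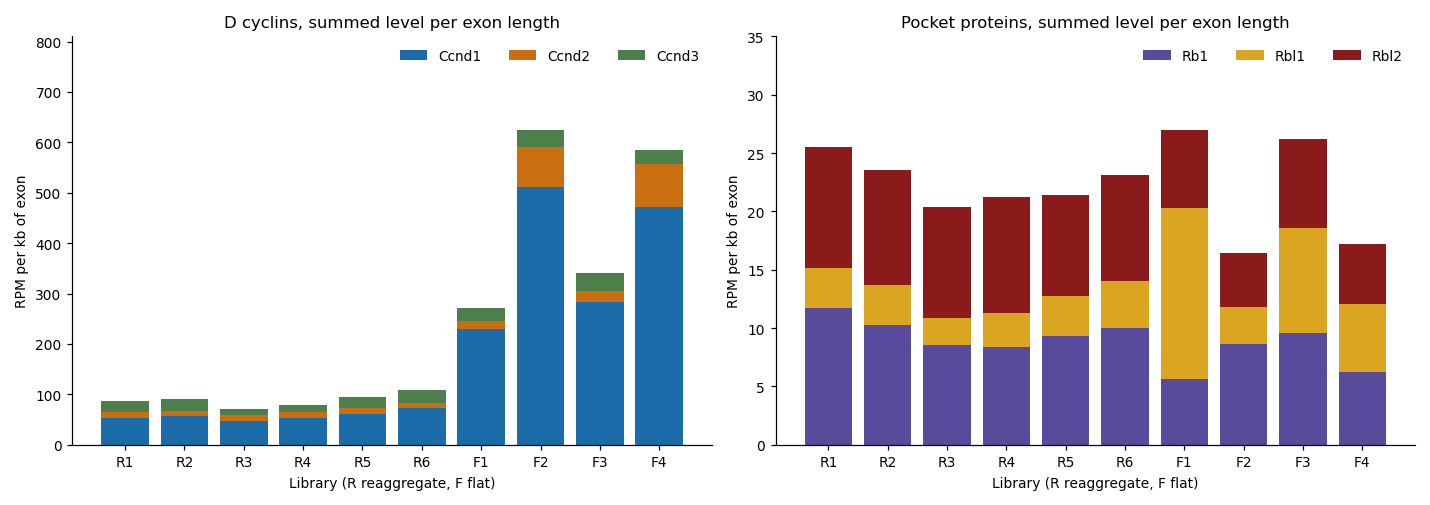
Summed level of the D cyclins and of the retinoblastoma family in each library (R1 to R6, reaggregates; F1 to F4, flat cultures), in RPM per kb of annotated exon, as stacked bars from 0. Ccnd1 made up 62.5% to 68.6% of the D cyclin bar in reaggregates and 80.8% to 84.8% in flat cultures.

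Rbl2 encodes p130, the retinoblastoma relative that predominates on E2F-driven promoters in resting cells, and lies at chr8:93593956-93647743. It had 60.0 to 72.1 RPM in reaggregates with a median of 67.45 RPM, and 46.0, 32.2, 53.1 and 35.4 RPM in flat cultures. All reaggregates were higher than all flat cultures, and flat cultures 2 and 4 were lowest. The log2 fold change was 0.69 ± 0.15 (adjusted p = 0.00766 by limma; exact permutation p = 0.00476), and 0.42 against flat cultures 1 and 3, where the adjusted p of 0.054 by limma missed the threshold. Against flat cultures 2 and 4 it was 0.97 (adjusted p = 0.000188 by limma), and with the label as a covariate 0.42 (0.0488). With consecutive reaggregates averaged it was 0.69 with an adjusted p of 0.102 by limma, and with these as a random effect the adjusted p was 0.0474. Per kb, Rbl2 made up 39.3% to 46.7% of the retinoblastoma family in reaggregates and 24.5% to 29.6% in flat cultures, and Rbl1, which encodes p107 and is itself driven by E2F, 11.2% to 17.4% and 19.7% to 54.7%. Rbl1 fell, with a log2 fold change of -1.13 ± 0.34 (adjusted p = 0.0293 by limma; -1.83 against flat cultures 1 and 3). Against flat cultures 2 and 4 it had -0.43 and did not pass (adjusted p = 0.184 by limma), and flat culture 2 lay within the range of the reaggregates. Rb1 gave 0.40 with an adjusted p of 0.104 by limma (0.40 and 0.211 against flat cultures 1 and 3).

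The other genes of the pathway were taken from fixed lists, whose counts stand beside 7.32% of all genes up and 6.53% down with all flat cultures, and 3.97% and 6.49% with flat cultures 1 and 3. Of 10 further kinases and cyclins of G1 and S phase tested, 3 fell and 0 rose. These were the cyclin E genes Ccne1 (5.72 ± 2.22 against 35.6 ± 7.23 RPM) and Ccne2 (5.97 ± 1.65 against 39.5 ± 18.8 RPM), with log2 fold changes of -2.60 and -2.54, and the cyclin A gene Ccna2 (19.3 ± 4.01 against 101 ± 35.4 RPM), with -2.32 (SD; adjusted p = 0.000168, 0.00038 and 9.19e-05 by limma). Against flat cultures 1 and 3 they had -2.38, -2.69 and -2.71. Cdk4, with 96.4% to 99.2% of the summed Cdk4 and Cdk6 RNA per kb, had a log2 fold change of 0.04, Cdk2 of -0.028 and Cdk6 of -0.46, and none passed the test. With flat cultures 1 and 3, 4 of the 10 fell, Cdk6 among them (-1.26, adjusted p = 0.013 by limma), while Cdk4 had -0.008 and Cdk2 -0.50. The list's median was -0.42 beside 0.035 for all genes, and -0.45 beside -0.053 with flat cultures 1 and 3.

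Of 12 other pocket proteins and E2F or DP factors, 5 fell and 0 rose, with a median of -0.76, and 4 fell against flat cultures 1 and 3, without E2f6 (-1.05, adjusted p = 0.0769 by limma), with a median of -0.85. Those that fell were the repressor E2Fs E2f8 (-2.38, and -2.51 against flat cultures 1 and 3) and E2f7 (-2.30 and -2.37), E2f2 (-1.94 and -2.61), E2f6 (-1.14) and Rbl1, of which E2f2 and Rbl1 were not called against flat cultures 2 and 4. Against all 4 flat cultures and against flat cultures 1 and 3, E2f4, the partner of p130, had -0.33 and -0.35 (adjusted p = 0.184 and 0.334 by limma) and E2f1 -0.31 and -0.44 (0.145 and 0.118). Of 7 DREAM partners, 1 fell by at least 2-fold (median -0.25), and 2 against flat cultures 1 and 3 (median -0.35), Lin9 being the second there. The first was Mybl2, for B-Myb, which replaces p130 on MuvB in cycling cells, with 3.78 to 6.47 RPM in reaggregates and 20.1, 5.03, 24.8 and 9.55 RPM in flat cultures (log2 -1.27, adjusted p = 0.0273 by limma; -2.08 against flat cultures 1 and 3, and -0.47 without passing against flat cultures 2 and 4). Dyrk1a, the kinase that assembles DREAM, was the 1 partner that was higher by adjusted p, at 52.5 to 60.4 RPM against 29.8 to 41.4 RPM (0.70 ± 0.13, adjusted p = 0.00374 by limma; 0.52 and 0.0263 against flat cultures 1 and 3).

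Genes that p130 and E2F are known to silence in resting cells were mostly lower. Of 24 tested, 21 fell and 0 rose, with a median log2 fold change of -1.88 beside 0.035 for all genes, and against flat cultures 1 and 3 all 24 fell, with a median of -2.54 beside -0.053. Against flat cultures 2 and 4, 15 of the 24 fell, beside 10.6% of all genes, with a median of -1.41 beside 0.13, and Mki67 (-0.52) was among the 9 that were not called. Rrm2, for a ribonucleotide reductase subunit, had 23.9 ± 5.58 RPM in reaggregates and 213 ± 40.8 RPM in flat cultures (log2 -3.14, adjusted p = 1.70e-05 by limma; -2.91 against flat cultures 1 and 3). Ccnb1, Birc5 and Ccnb2 fell with -2.71, -2.46 and -2.35, and with -3.17, -3.09 and -2.60 against flat cultures 1 and 3. Mki67, the proliferation marker, had 34.9 to 44.3 RPM in reaggregates and 181, 39, 328 and 81.1 RPM in flat cultures. Flat culture 2 was within the range of the reaggregates, so that the cultures with the highest Ccnd1 and Ccnd2 were not those with the highest Mki67. Within the flat cultures, 5 of the 24 genes were lower in cultures 2 and 4 and 0 higher, beside 6.96% and 2.89% of all genes.

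**Figure D4:**
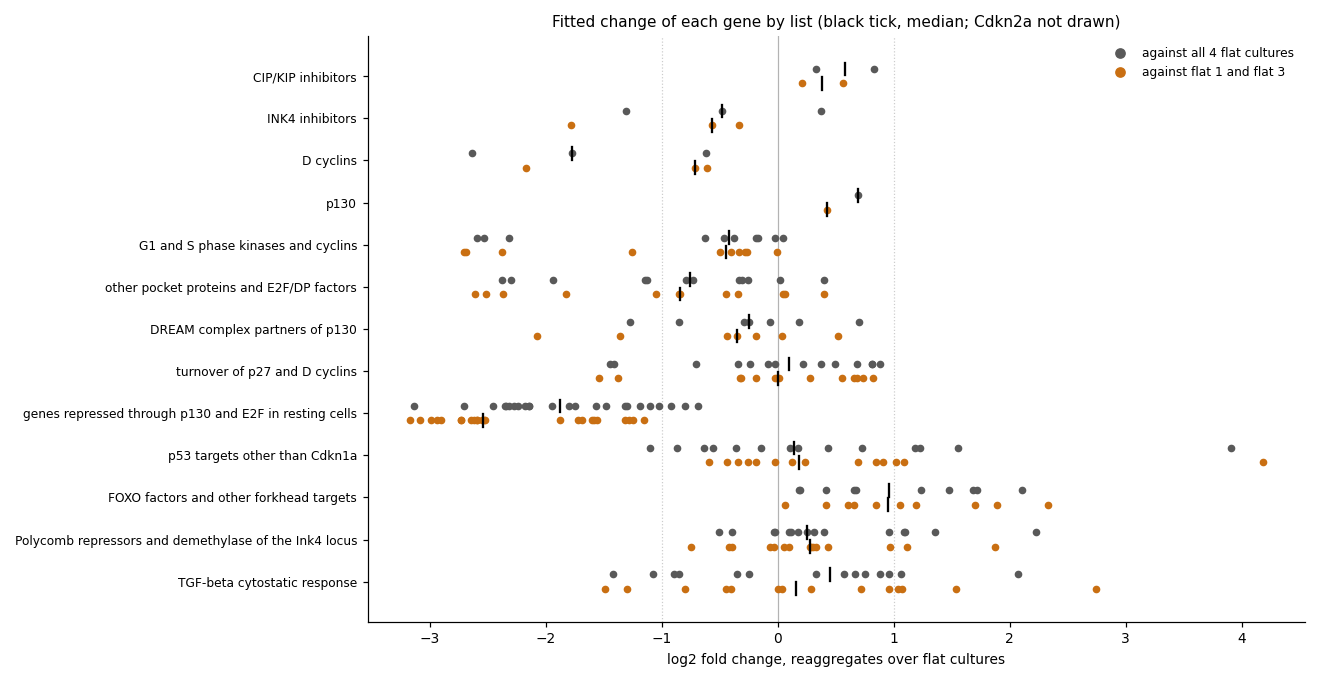
Fitted log2 fold change of each tested gene, reaggregates over flat cultures, by list, against all 4 flat cultures (grey) and against flat cultures 1 and 3 (orange). Black ticks are medians, dotted lines mark a 2-fold change, and Cdkn2a is not drawn, since its fitted value is set by the pseudocount. The 24 genes repressed through p130 and E2F had medians of -1.88 and -2.54.

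Of 14 genes for the turnover of p27 and the D cyclins, 2 fell and 0 rose (median 0.097), and 2 fell against flat cultures 1 and 3 (median 0.003). Cks1b, cofactor of the ligase that degrades p27, fell from 56.5 ± 20.9 to 19.5 ± 2.9 RPM (log2 -1.45, adjusted p = 0.00151 by limma; -1.38 against flat cultures 1 and 3). Skp2, the receptor of that ligase, had 13.9 to 19.7 RPM in reaggregates and 55.8, 11, 38.6 and 18.3 RPM in flat cultures, and it fell against flat cultures 1 and 3 (-1.54, adjusted p = 0.000949 by limma) but not against all 4 (-0.70, adjusted p = 0.162 by limma). Fbxo31, whose protein targets cyclin D1, fell as well, through flat cultures 2 and 4, at 7.76 and 7.90 RPM against at most 1.95 RPM elsewhere, and had -0.33 against flat cultures 1 and 3 (adjusted p = 0.532 by limma).

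Upstream of Cdkn1a, Trp53 itself had a log2 fold change of 0.027 (adjusted p = 0.916 by limma), and -0.054 against flat cultures 1 and 3. Of 14 other p53 targets tested, 4 rose and 1 fell, with a median of 0.14. Gadd45a rose from 18.2 ± 4.53 to 291 ± 107 RPM (log2 3.91 ± 0.28, adjusted p = 3.15e-05 by limma; 4.18 against flat cultures 1 and 3), and Sesn1, Trp53inp1 and Bbc3 rose with 1.55, 1.23 and 1.18, while Ccng1 fell with -1.10. Mdm2, which keeps p53 in check, had 140 to 239 RPM in reaggregates and 236, 387, 241 and 490 RPM in flat cultures (-0.87, adjusted p = 0.0218 by limma), and -0.44 (0.203) against flat cultures 1 and 3. With those cultures, 2 of the 14 rose, Gadd45a and Zmat3, and 0 fell (median 0.18), while Sesn1, Trp53inp1, Bbc3 and Ccng1, at 0.85, 0.91, 1.08 and -0.59, were not called. By the paper's methods, collagenase and dispase were used to disperse the reaggregates ahead of RNA extraction, and no such step is given for flat cultures. Immediate early and stress genes, which handling can induce, summed to between 2249 and 2795 RPM in reaggregates and to 588, 975, 3137 and 1098 RPM in flat cultures, and 6 of 12 rose (median 1.22), but 1 of 12 against flat cultures 1 and 3 (median 0.82). The part of these genes or of that step in the Cdkn1a and Gadd45a values was not tested.

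FOXO factors can induce Cdkn1b and Rbl2. Of 10 FOXO and forkhead target genes, 5 rose and 0 fell, with a median of 0.95, and 4 rose against flat cultures 1 and 3, also with a median of 0.95. Foxo3 rose from 71.7 ± 26.2 to 162 ± 21.2 RPM (log2 1.24, adjusted p = 0.00241 by limma), Txnip from 136 ± 23.2 to 443 ± 42.6 RPM (1.72, adjusted p = 5.79e-05 by limma) and Sesn3 from 37.4 ± 21 to 109 ± 16.2 RPM (1.68). Against flat cultures 1 and 3 they had 1.19, 1.70 and 1.05, whereas Bcl6 went from 2.10 to 1.89 and was not called (adjusted p = 0.0642 by limma). Bcl6, at 19.4 to 103 RPM in reaggregates, was highest in reaggregates 3 and 4, which also had the most Cdkn1b. The part of FOXO factors or of Bcl6 in the Cdkn1b and Rbl2 values was not tested.

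The INK4 locus is silenced by Polycomb proteins and opened by the demethylase Kdm6b. Of 15 such genes, 2 rose and 0 fell (median 0.25), and 1, Kdm6b, against flat cultures 1 and 3 (median 0.28). They were Kdm6b, from 25.1 ± 19.6 to 105 ± 29.7 RPM (log2 2.23, adjusted p = 0.00192 by limma), and Ezh1 (1.36), with 1.87 and 0.96 against flat cultures 1 and 3. Ezh2 and Bmi1 had log2 fold changes of -0.51 and 0.40, and of -0.75 and 0.29 there. Between the flat cultures with and without Cdkn2a, 1 of the 15 was called, beside 6.96% of all genes lower and 2.89% higher. It was the Polycomb gene Cbx2, lower in those with Cdkn2a (4.89 and 4.98 against 15.7 and 16.8 RPM; log2 -1.62, adjusted p = 0.0238 by limma). Ezh2 (34.4 and 50 against 60.3 and 56.3 RPM) and Bmi1 (69.9 and 96.3 against 99.1 and 92.6 RPM) were not. TGF-β can raise Cdkn2b and Cdkn1a and lower Myc. Of 14 genes of that response, 2 rose and 2 fell, with a median of 0.45, and 4 rose and 2 fell against flat cultures 1 and 3, with a median of 0.16. Among them were Tgfb3 (2.07, and 1.53 there), Id1 (-1.42 and -1.49) and Id2 (-1.08 and -1.30, but not called against flat cultures 2 and 4), and Myc had -0.85 and -0.80 (adjusted p = 0.0109 and 0.0667 by limma), under 2-fold.

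IL-3 within the reaggregates changed 0 of the 9 members tested and 0 of 16292 genes (0%), at an unadjusted p under 0.05 in limma 0 members and 20 genes. Cdkn2a was below the filter. With consecutive reaggregates as a block, 0 members and 8 genes (0.0491%) passed the adjusted p, and at an unadjusted p under 0.05 there were 692 genes and 1 member, Ccnd1. Its values without and with IL-3 were 207 and 217, 180 and 205, and 231 and 276 RPM, higher with IL-3 in 3 of 3 pairs, with a fitted log2 difference of 0.17 (95% interval from 0.05 to 0.29) and an adjusted p of 0.941 by limma. Cdkn1b and Ccnd3 were also higher with IL-3 in all 3 pairs, and Cdkn2d and Ccnd2 lower, by at most 0.30 in log2 size. The largest single difference within a pair was 0.40, for Cdkn2c in reaggregates 5 and 6.

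For 7 of the 9 members above the floor in reaggregates, the means of the consecutive pairs spanned more than the largest gap within a pair. Consecutive reaggregates resembled each other over all genes, and the share of genes for which this held is not given, so that the count is not particular to the members. The pair means of Cdkn2b spanned 1.51 on the log2 scale and those of Cdkn1b 1.46, beside largest gaps of 0.081 and 0.26. The exceptions were Cdkn2c, with 0.30 between pair means and a gap of 0.40, and Ccnd2, with 0.069 and 0.14. Reaggregates 5 and 6 had the most Cdkn2b and Cdkn1a and the least Cdkn1b, and reaggregates 3 and 4 the reverse.

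Within the flat cultures, which compare 2 with 2 libraries, 3 of the 10 members were called by the laboratory label in limma: Cdkn2a and Ccnd2 higher in cultures 2 and 4, and Cdkn2b lower, beside 2.89% of 16115 genes higher and 6.96% lower. Cdkn2a passed the filter through cultures 2 and 4 alone and was at 0 in the others, so that its fitted fold is set by the pseudocount. Without it, 2 of 9 were called. Ccnd2 differed by 2.12 ± 0.34 (log2, SE; adjusted p = 0.00427 by limma) and Cdkn2b by -1.42 ± 0.32 (adjusted p = 0.0215 by limma). Without flat culture 1 or without flat culture 3 no member was called, and without flat culture 2 or 4 only Cdkn2a was. Ccnd1 was 1.91-fold higher in cultures 2 and 4 without passing (log2 0.94, adjusted p = 0.214 by limma). The adipocyte markers Fabp4 (435 and 711 against 31.3 and 47.2 RPM) and Pparg (395 and 295 against 49.4 and 58.1 RPM) moved with Ccnd2 and Cdkn2a, as did Cidec and Plin1, so that 4 of 4 adipocyte markers tested were higher, whereas the fat cell hormone gene Adipoq stayed at or below 0.358 RPM in the flat cultures. The part of these markers, of the cells' origin or of the chromosome Y genes in the values of Cdkn2a and Ccnd2 was not tested.

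By Pearson's r on log2(RPM + 0.5) over the 10 libraries, which share their groups and pairs, the genes most like each member were sought among the 11661 with a mean of at least 5 RPM. For Cdkn2a they were Ddx3y (r = 0.999) and Eif2s3y (0.998), both on chromosome Y, and Cst6 (0.997). All of these reached the mean of 5 RPM through flat cultures 2 and 4 alone. An r near 1 therefore restates where Cdkn2a was detected and is no separate result. Ddx3y had 48.4 and 47.1 RPM in flat cultures 2 and 4 and at most 0.12 RPM in the other 8 libraries. For Ccnd2 they included Klhdc8a (0.992) and Arhgdib (0.989). Arhgdib had at most 0.651 RPM in reaggregates and 1.38, 38.8, 1.56 and 41.2 RPM in flat cultures.

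Ccnd1 was most like Ttll7 (0.993), Mpp6 (0.990) and Gpr39 (0.990), and Rbl2 most like Nck2 (0.992), 2810474O19Rik (0.991) and Pik3ip1 (0.991). Pik3ip1, for an inhibitor of PI3-kinase, had 62.8 to 78.9 RPM in reaggregates and 21.6, 6.81, 28.5 and 7.58 RPM in flat cultures, with cultures 2 and 4 lowest as for Rbl2. Cdkn2d was most like its copy and then Cdc20 (0.982), a mitotic gene with 13.6 to 24.0 RPM against 47.4 to 175 RPM. Cdkn1a was most like 1190002N15Rik (0.975), Vps13d (0.975) and Edil3 (0.974), and Cdkn2b most like Pla1a (0.977), Akirin2 (0.976) and Dhdds (0.975). Cdkn1b (Armcx3, 0.938) and Cdkn2c (Dkc1, 0.953) had less close partners.

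Promoter windows from 250 bases before to 50 bases after a gene's start were taken from RefSeq (GRCm38.p6), where 8 of the members matched 12 windows, and placed on NCBIM37 by exact match. They were searched on both strands for the p53 core CATGNNNNNNCATG, for the E2F words TTTCCCGC, TTTCGCGC, TTTGCCGC and TTTGGCGC, and for the CHR element TTTGAA of DREAM targets. Of all 32851 windows, 0.712% held the p53 core, 2.26% an E2F word and 17.9% the CHR element. Among the members, 1 window of Cdkn1a held the p53 core, 1 of Cdkn2a an E2F word, and 1 each of Cdkn2b and Rbl2 the CHR element. Ccnd1 and Ccnd2 matched no window, so that their promoters were not searched. Below are the windows of Cdkn1a and Rbl2, the members higher in reaggregates, and of Cdkn2a, detected in 2 libraries, with matches in capitals (TTCAAA is the CHR element read on the other strand). They are from the upstream start of Cdkn1a on the plus strand (chr17:29227674-29227973), from Rbl2 on the plus strand (chr8:93593706-93594005), and from the p19ARF and p16INK4a starts of Cdkn2a on the minus strand (chr4:88940474-88940773 and chr4:88928047-88928346).
Cdkn1a upstream start: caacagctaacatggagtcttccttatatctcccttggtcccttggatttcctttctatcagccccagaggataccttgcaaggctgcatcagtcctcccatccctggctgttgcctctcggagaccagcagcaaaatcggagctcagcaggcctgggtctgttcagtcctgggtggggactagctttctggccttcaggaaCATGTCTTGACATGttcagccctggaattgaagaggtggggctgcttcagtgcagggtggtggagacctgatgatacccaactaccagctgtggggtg
Rbl2: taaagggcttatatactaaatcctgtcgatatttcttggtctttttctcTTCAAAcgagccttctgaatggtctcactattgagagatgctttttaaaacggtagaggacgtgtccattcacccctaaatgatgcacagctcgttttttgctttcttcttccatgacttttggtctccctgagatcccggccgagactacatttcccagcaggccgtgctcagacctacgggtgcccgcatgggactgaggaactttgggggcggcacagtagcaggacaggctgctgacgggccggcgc
Cdkn2a p19ARF start: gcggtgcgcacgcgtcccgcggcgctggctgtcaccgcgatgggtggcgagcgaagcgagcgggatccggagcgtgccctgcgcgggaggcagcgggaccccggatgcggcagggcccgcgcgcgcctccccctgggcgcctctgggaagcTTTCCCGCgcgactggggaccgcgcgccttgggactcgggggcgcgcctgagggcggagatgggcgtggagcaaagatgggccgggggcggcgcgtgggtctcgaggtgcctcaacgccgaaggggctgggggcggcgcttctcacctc
Cdkn2a p16INK4a start: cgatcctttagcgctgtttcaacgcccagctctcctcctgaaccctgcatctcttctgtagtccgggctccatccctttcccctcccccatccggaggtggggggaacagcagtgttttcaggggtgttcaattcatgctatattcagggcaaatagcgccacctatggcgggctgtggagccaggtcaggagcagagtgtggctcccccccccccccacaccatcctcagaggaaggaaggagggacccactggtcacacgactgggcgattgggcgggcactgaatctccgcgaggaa
The p16INK4a window and the second Cdkn1a window held none of these words, which says nothing of the factors that bind there. A match is a description of the sequence and not a measured site.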

How the data were processed

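RNA-seq of 6 OP9 reaggregates and 4 flat cultures was used. According to the submitters' notes and the paper's methods, the authors aligned 50-base reads to NCBIM37/mm9 with TopHat 1.2.0, assigned them to Ensembl genes in GeneProf with multimapped reads divided, and deposited RPM values for each gene and library. Whether counting used strand is not given in the sources used here. The deposited fold changes and adjusted p-values of the authors' DESeq comparison were not used. No column was left unmatched.

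Here, log2(RPM + 0.5) was compared with limma 3.58.1 (R 4.3.3; mean-variance trend, Benjamini-Hochberg adjustment) where any library compared passed 0.5 RPM, which Cdkn2a did through flat cultures 2 and 4. The pseudocount shrinks the folds of scarce genes. The model was tested on simulated data. Single members were tested by two-sided exact permutation, which treated every reaggregate as separate although consecutive ones resembled each other. Exon lengths, positions and 50-base windows came from GENCODE M1 on NCBIM37, a later annotation than the authors' own. By the rule for naming, genes named were the members, 15 fixed partners, of each list up to 4 genes with the largest called change, no overlap and a group mean of at least 5 RPM, markers of cell types whose sum passed 5 RPM, and genes among the 3 most like each member. Bbc3, Zmat3, Mdm2, Dyrk1a, E2f2, E2f6, Fbxo31, Ezh2, Bmi1, Cbx2, Lin9, Mtap, Klhl9, the chromosome Y genes and the markers listed at or near 0 fall outside it and were chosen after their values were seen. The members and lists were chosen with earlier results of these data known. Some listed genes, among them Pmaip1, Dmrta1, Spi1, Hbb-b1 and Lep, were not found under these symbols, and Cdk1 was read as Cdc2a. Figures were drawn with matplotlib.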

Additional observations from a re-analysis of the deposited data

How the results depend on the processing

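Of the 3 down-regulated members, Ccnd1 passed in every alternative run, with log2 fold changes from -3.11 to -2.17. Cdkn2d ranged from -1.78 to -0.84 and Ccnd2 from -2.84 to -0.72. Cdkn1a (0.56 to 1.09) and Rbl2 (0.42 to 0.97) were higher in each alternative. Cdkn2b changed sign without passing, from -0.34 to 1.08. Pseudocounts, filters, quantile or median-ratio scaling and the fit without a trend left the members called by the 2-fold rule at 0 up and 3 down. By adjusted p alone, Ccnd3 missed the threshold without a filter (0.0942 by limma), with median-ratio scaling (0.052) and without the trend (0.059). The median of all genes was 0.035, and -0.020 and 0.025 under the 2 scalings.

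Counts of genes were 1239 up and 1106 down. They were 319 and 430 with consecutive reaggregates averaged, 769 and 677 with these as a random effect, 354 and 486 with reaggregates without IL-3 alone, 281 and 368 with IL-3 alone, and 2581 and 1776 against flat cultures 2 and 4. Against flat cultures 1 and 3, 661 were up. Averaging, or either set by IL-3, left 1 member down, Ccnd1, on fewer libraries. For these runs, the replicate block and the runs without 1 library, no share of genes tested is given beside the member counts. Against flat cultures 2 and 4, 1 member was up, Cdkn1a. Without a fold rule, 2299 genes and 2 members were up and 2665 genes and 5 members down. With the laboratory label as a covariate, added after seeing the data, 703 were up. For the rest, the cause was not tested.

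With the replicate block on reaggregates and flat cultures 1 to 4, 1891 genes were up and 1160 down, and 0 members up and 3 down. Replicate numbers are not pairs by the labels: deviations of same-numbered libraries had r of -0.041, -0.213, 0.072 and 0.155.

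Leaving out 1 library at a time, genes up ranged from 772 (without flat culture 4) to 2122 (without flat culture 3), genes down from 815 to 1522 and members down from 3 to 4, the fourth, without flat culture 1 or 3, being Cdkn2a, whose fold is set by the pseudocount and which passed the filter through flat cultures 2 and 4 alone. Members by laboratory label, 3 in full, were 0 to 1, where the lone library of its label is assumed to vary like the others, and 1 without a filter. The IL-3 counts stayed at 0. Cdkn2a was below the filter in the IL-3 comparison and against flat cultures 1 and 3, and has no value there. Depth limits detection to 0.318 to 0.408 RPM.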
